A study of Mus musculus with 18 samples.

Results

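The mRNA accumulation of 10 genes was followed in GC1spg cells, an immortalised mouse line derived from the testis that stands in for spermatogonia. They are the receptors of glial cell line-derived neurotrophic factor (GDNF) and of fibroblast growth factors (FGF), which are Gfra1, Gfra2, Ret, Fgfr1, Fgfr2 and Fgfr3, together with Etv5, Id4, Cd9 and Foxo1, which are used as markers or regulators of spermatogonial stem cells. The members were taken by gene name, and all 10 are among the 31643 genes of the table. The 18 libraries form 4 groups, and all the cells had been given an siRNA. Cells with an siRNA against TGR5, the bile acid receptor encoded by Gpbar1, received busulfan (siTGR5 Bu, n = 4) or DMSO (siTGR5 DMSO, n = 5). Cells with the control siRNA against GFP received busulfan (siGFP Bu, n = 4) or DMSO (siGFP DMSO, n = 5). Busulfan (Bu) is an alkylating agent that damages DNA and depletes spermatogonia in the testis. The study's methods give 200 μM for 24 h for vehicle and Bu groups without naming an siRNA. Nothing says that libraries of a group came from separate cultures, so the p-values below measure the spread between these libraries, which may be technical.

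GDNF is secreted by somatic cells of the testis and binds GFRA1 on undifferentiated spermatogonia, and GFRA1 then signals through the receptor tyrosine kinase RET, or through NCAM1 in other cell types. FGF2 acts beside GDNF on the same cells through FGF receptors. Both inputs run through the RAS-ERK and PI3K-AKT relays, and Etv5 is among the genes they induce. ID4 blocks E proteins of the basic helix-loop-helix family, FOXO1 is a forkhead factor that AKT keeps out of the nucleus, and CD9 is a tetraspanin of the cell surface.

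Total counts per library lay between 24745523 and 49638166. Gpbar1, the target of the siRNA, had 0.489, 0.447, 0.361, 0.362 and 0.112 CPM (read counts scaled to a common library total) in siTGR5 DMSO cells, against 0.861, 0.445, 0.824, 0.780 and 0.581 CPM in siGFP DMSO cells. Its level with siTGR5 was 50.5% of that with siGFP under DMSO (edgeR adjusted p = 0.0135) and 77.1% under Bu (adjusted p = 0.425), where the libraries had 0.388, 0.288, 0.404 and 0.314 CPM with siTGR5 and 0.210, 0.565, 0.624 and 0.463 CPM with siGFP. The knock-down was therefore called in DMSO and not in Bu. None of 8 germ cell markers such as Ddx4 and Dazl passed the filter on low counts, and the highest value of any of them in a library was 0.308 CPM (Sycp1), whereas 9 of 10 fibroblast markers passed it. Of 23 other markers of undifferentiated spermatogonia in the table, 7 exceeded a mean of 1 CPM in each group. So did 5 of 7 Sertoli cell markers, among them Wt1 with a mean of 223 CPM over all libraries, and 1 of 4 Leydig cell markers. The defining germ cell markers were thus at or near the limit of detection. Transcripts of rod photoreceptors, summed over 16 markers, reached 6.88 to 108.7 CPM in 7 libraries of all 4 groups and 1.09 to 2.25 CPM in the other 11.

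For 3 members the stretch of DNA just before the RefSeq start on GRCm38.p6 is shown, without the bases that GENCODE M21 annotates as exon. They were chosen because Gfra1 and Fgfr2 were called lower with Bu in cells of both siRNAs, while Id4 was not called in any comparison. Fgfr1 was also called lower with Bu in both, but the promoter set used here held no window for it. The GENCODE M21 models of Gfra1 and Fgfr2 reach further upstream, to 58455909 and 133123350, so these 2 stretches lie inside the gene models. The stretch of Id4 lies before its model, which starts at 48261228. Capitals mark CpG dinucleotides.
Fgfr2, chr7:130266809-130267058, minus strand: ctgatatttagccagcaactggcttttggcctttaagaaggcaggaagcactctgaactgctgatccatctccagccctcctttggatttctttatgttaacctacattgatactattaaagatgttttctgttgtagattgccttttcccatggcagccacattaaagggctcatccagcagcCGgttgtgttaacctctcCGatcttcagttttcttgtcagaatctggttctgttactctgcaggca
Gfra1, chr19:58455399-58455460, minus strand: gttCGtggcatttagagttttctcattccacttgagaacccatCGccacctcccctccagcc
Id4, chr13:48260866-48261115, plus strand: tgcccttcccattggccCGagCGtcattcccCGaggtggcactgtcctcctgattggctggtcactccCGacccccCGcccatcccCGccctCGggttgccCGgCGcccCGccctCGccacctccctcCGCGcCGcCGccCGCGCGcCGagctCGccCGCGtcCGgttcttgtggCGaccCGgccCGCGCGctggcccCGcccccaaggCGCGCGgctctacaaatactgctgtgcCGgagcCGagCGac
The 250 bases of Id4 hold 35 CpG and 5 GC boxes (GGGCGG on either strand, each of which contains a CpG), and those of Fgfr2 hold 2 CpG and no GC box. The whole window of Gfra1, exon included, holds 10 CpG and no GC box. Other members, called in at least 1 comparison, also have windows with CpG and GC boxes. These are Foxo1 (20 CpG, 2 GC boxes), Cd9 (16 and 2), Fgfr3 (19 and 3 in the first of its windows) and Etv5 (27 and 3, likewise). Id4 holds the most of both among the 7 members with a window. It was also the only member tested that was not called in any comparison. Whether CpG content goes with the calls therefore cannot be told and was not tested. Over 32851 RefSeq windows of this length the median was 6 CpG, and 32.7% held a GC box. The E2F letters TTTNNCGC, present in 4.28% of all windows on either strand, were in no window of the 7 members that have one. These are matches of letters and not binding sites.

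Of the 10 members, 8 passed the filter on low counts and were tested. Gfra2 and Ret did not. Gfra2 had 4 reads in all 18 libraries together, never more than 1 in a library, and Ret had 18 reads, never more than 4 in a library. A count of 0 allows up to 3 reads, which corresponds to 0.0601 to 0.121 CPM per library, so both genes were at or near the limit of what this depth can show. Gfra1, with 481 to 1400 reads per library, was thus the only one of the GDNF receptor components among the members that could be compared between groups. Ret was listed at 0 in 6 libraries and Gfra2 in 14, and no fold change is given for either.

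Levels of different genes were compared per kilobase of annotated exon. In siGFP DMSO cells Cd9 stood highest with 87.7 ± 0.933 CPM per kb (SD, n = 5), followed by Fgfr1 with 18.5 ± 0.556, Foxo1 with 5.35 ± 0.174 and Gfra1 with 5.24 ± 0.0916 CPM per kb. The libraries of Foxo1 and Gfra1 overlapped, as did those of Fgfr2 (1.44 CPM per kb), Id4 (1.37) and Fgfr3 (1.34), so neighbours in these runs cannot be ordered. Etv5 had 0.664 CPM per kb. On this length the means of these 4 genes had the same order in all 4 groups, and after Bu the libraries of Foxo1 lay above those of Gfra1 with either siRNA. Below Cd9 and Fgfr1 the order depended on the length used. With the median transcript length of the deposited table, Gfra1 stood above Foxo1 in all 4 groups (14.8 against 5.35 CPM per kb in siGFP DMSO cells), and in siGFP DMSO cells Foxo1 stood below Fgfr3, Fgfr2 and Etv5 as well. That length is shorter than the annotated exons for Gfra1 (1937 against 5476 bases) and the same for Foxo1.

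Calls were made with edgeR's quasi-likelihood test at a Benjamini-Hochberg adjusted p under 0.05, over all genes tested. With Bu in siGFP cells 6 of the 8 members were called, 2 higher and 4 lower, where 28.1% of 14304 genes were called (14.3% higher and 13.8% lower). With Bu in siTGR5 cells 3 were called, all lower, against a background of 30.7% of 14372 genes (15.2% lower). Between siTGR5 and siGFP cells under DMSO 5 were called, 2 higher and 3 lower, where the background was 28.3% (13.8% higher and 14.4% lower). Under Bu 4 were called between the siRNAs, 2 higher and 2 lower, with a background of 30.3% (13.8% higher and 16.5% lower). The median log2 fold change of the 8 members was -0.21 for Bu in siGFP cells, where that of all genes tested was 0.0031, and -0.16 for Bu in siTGR5 cells, where it was 0.0037. Each group enters 2 of these 4 comparisons, so they share libraries and are not independent of each other. Counts of calls in the other gene lists below are to be read beside the same shares of all genes tested.

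**Figure D1:**
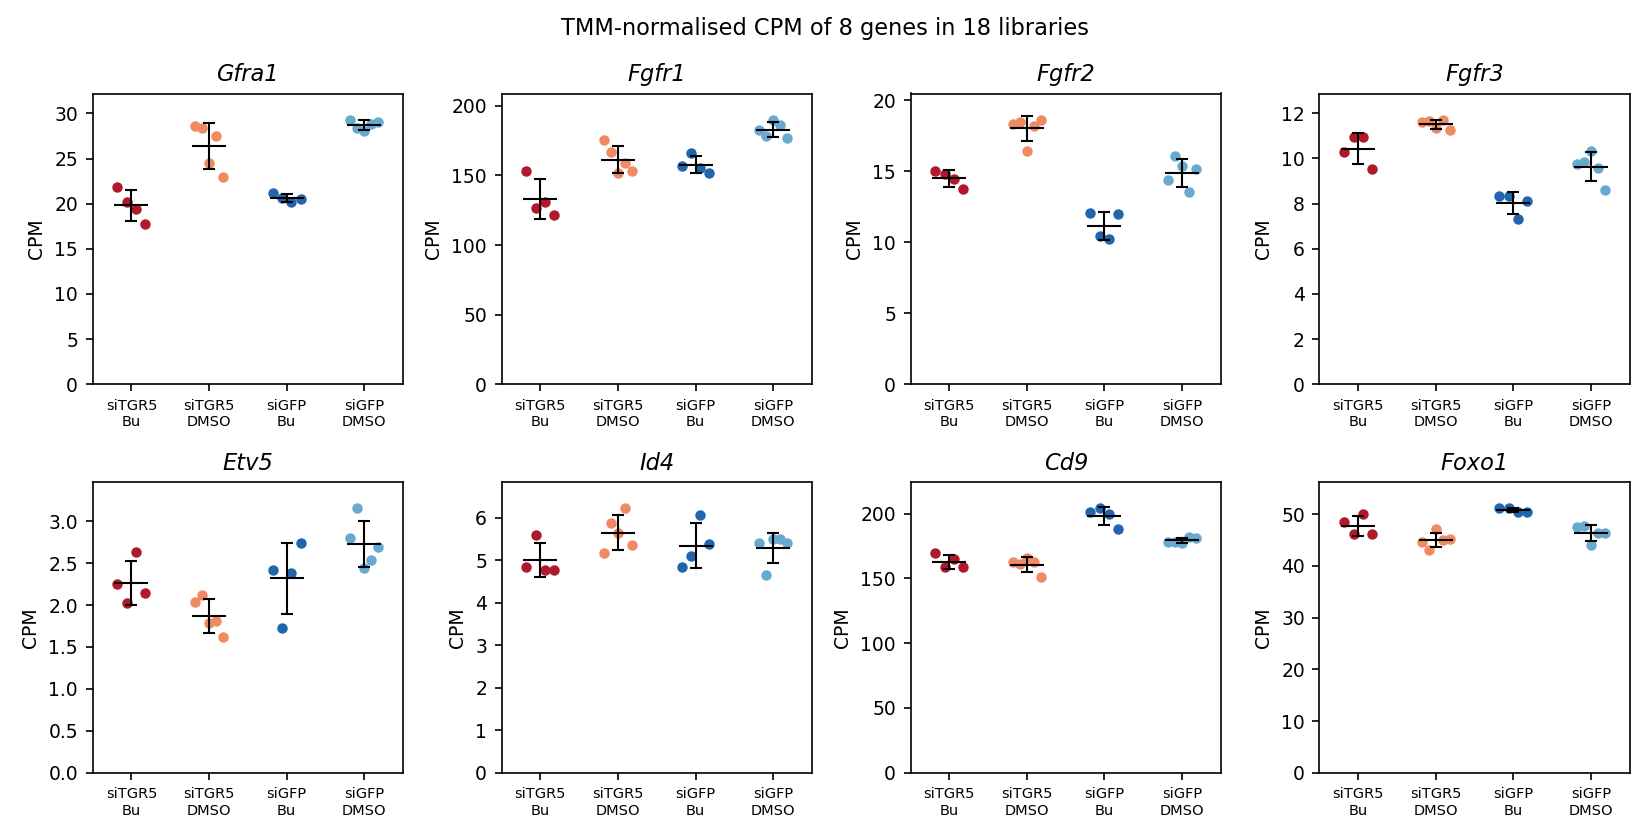
TMM-normalised CPM (y axes, linear, from 0) of the 8 genes tested, one panel per gene, in siTGR5 Bu, siTGR5 DMSO, siGFP Bu and siGFP DMSO cells; points are libraries, black bars the mean and SD. Gfra1 of the 4 siGFP Bu libraries lay between 20.2 and 21.2 CPM, below all 5 siGFP DMSO libraries, and Cd9 of all siTGR5 libraries lay below that of all siGFP libraries.

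Gfra1, the GDNF-binding receptor subunit (chr19:58235604-58455909, mm10), was lower after Bu with either siRNA. It had 21.2, 20.6, 20.2 and 20.5 CPM in siGFP Bu cells, against 29.3, 28.4, 28.1, 28.8 and 29.1 CPM in siGFP DMSO cells. The groups did not overlap, and the level with Bu was 72.1% of that with DMSO (log2 fold change -0.47, SE 0.04, adjusted p = 2.05e-06). In siTGR5 cells it had 21.9, 20.2, 19.4 and 17.7 CPM with Bu, against 28.6, 28.4, 24.5, 27.6 and 23.0 CPM with DMSO. Here too the groups were apart, with a wider spread, and the level was 75.5% (log2 fold change -0.41, SE 0.07, adjusted p = 0.000403). Between the siRNAs Gfra1 was not called, with log2 fold changes of -0.12 under DMSO (95% interval -0.24 to -0.0080, adjusted p = 0.104) and -0.066 under Bu (-0.21 to 0.073, adjusted p = 0.471). Without library 1 of siTGR5 DMSO the first of these passed the threshold (adjusted p = 0.0482). An antisense gene, Gm16277, shares 416 exonic bases with Gfra1, and whether the counting used strand is not given in the sources used here.

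The other genes of the GDNF family that were fixed as a list, 7 of 11 tested, gave 1 higher and 2 lower with Bu in siGFP cells, and 2 higher and 2 lower with Bu in siTGR5 cells. Ncam1, an alternative partner of GFRA1, fell by 0.44 in siGFP cells (SE 0.05, adjusted p = 3.91e-05) and by 0.42 in siTGR5 cells (SE 0.04, adjusted p = 2.24e-06) on the log2 scale. Gas1, a growth arrest protein related in sequence to the GFRA family, fell by 0.55 and 0.60 on the log2 scale in siGFP and siTGR5 cells (adjusted p = 0.000234 and 1.23e-05). Gdf15, a stress-induced ligand of the receptor GFRAL, was higher with Bu (log2 fold change 0.74 in siGFP and 0.57 in siTGR5 cells, adjusted p = 0.00642 and 0.0258). The ligand Gdnf itself averaged 17.3 ± 1.38 CPM in siGFP Bu and 17.7 ± 1.08 CPM in siGFP DMSO cells (SD, n = 4 and 5), a difference that was not called (adjusted p = 0.774). It was lower with siTGR5 under DMSO (log2 fold change -0.31, SE 0.06, adjusted p = 0.000612), where 3 of the list were lower and none higher. With Bu, 1 of the list was lower with siTGR5, which was Gdf15 (-0.84, adjusted p = 0.0013). The list's median was -0.030 and -0.065 for Bu in siGFP and siTGR5 cells.

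The 3 FGF receptors, tyrosine kinases that bind FGF with heparan sulfate, were called lower after Bu in siGFP cells, and Fgfr1 and Fgfr2 also in siTGR5 cells. With siTGR5, Fgfr1 was lower and the other pair higher than with siGFP. Fgfr1 (chr8:25513654-25575718) had 157, 166, 155 and 152 CPM in siGFP Bu cells, against 183, 178, 190, 186 and 177 CPM in siGFP DMSO cells. The groups did not overlap (log2 fold change -0.21, SE 0.04, adjusted p = 0.00111). In siTGR5 cells it had 154, 126, 131 and 122 CPM with Bu, against 176, 167, 152, 159 and 153 CPM with DMSO. Library 1 of siTGR5 Bu overlapped the DMSO libraries and the other 3 lay below them (log2 fold change -0.27, SE 0.06, adjusted p = 0.00177). Fgfr1 was lower with siTGR5 than with siGFP under DMSO (-0.18, SE 0.04, adjusted p = 0.00266; no overlap) and under Bu (-0.25, SE 0.06, adjusted p = 0.00616; library 1 of siTGR5 Bu overlapped siGFP Bu).

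Fgfr2 (chr7:130162451-133123350) was the only member called in all 4 comparisons besides Fgfr1. It had 12.0, 10.4, 10.2 and 12.0 CPM in siGFP Bu cells, against 14.4, 16.1, 15.3, 13.5 and 15.2 CPM in siGFP DMSO cells. In siTGR5 cells it had 14.9985, 14.8, 14.4 and 13.7 CPM with Bu, against 18.3, 18.5, 16.4, 18.2 and 18.6 CPM with DMSO. The groups were apart in both, with log2 fold changes of -0.40 (SE 0.07, adjusted p = 0.000847) in siGFP and -0.31 (SE 0.06, adjusted p = 0.000444) in siTGR5 cells. When nuclear-retained transcripts (treated further on) entered the fit as a covariate, the value in siGFP cells was -0.26 and was not called (adjusted p = 0.505). Unlike Fgfr1 it was higher with siTGR5, by 0.27 under DMSO (SE 0.06, adjusted p = 0.00152) and by 0.36 under Bu (SE 0.07, adjusted p = 0.00194) on the log2 scale, again without overlap. The annotated gene model spans 2960900 bases and shares 314 exonic bases with Ctbp2 on the same strand, so reads from there cannot be told apart between these genes.

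Fgfr3 (chr5:33721674-33737068) changed in the same directions as Fgfr2. It had 8.34, 8.34, 7.34 and 8.11 CPM in siGFP Bu cells, against 9.77, 9.83, 10.3, 9.58 and 8.59 CPM in siGFP DMSO cells, and no library of one group reached the other (log2 fold change -0.25, SE 0.07, adjusted p = 0.0188). Without library 3 of siGFP Bu the log2 fold change was -0.21 and was not called (adjusted p = 0.0628). In siTGR5 cells it had 10.3, 10.96, 10.96 and 9.54 CPM with Bu, against 11.6, 11.6, 11.3, 11.7 and 11.2 CPM with DMSO, which did not overlap but was not called (log2 fold change -0.14, SE 0.06, adjusted p = 0.0891). With siTGR5 it was higher, by 0.26 under DMSO (SE 0.06, adjusted p = 0.0035) and 0.36 under Bu (SE 0.08, adjusted p = 0.00278) on the log2 scale, and the groups did not overlap. Without the 7 libraries that held rod transcripts the second value was 0.37 with an adjusted p of 0.0536. A transcript annotated on the other strand, G630022F23Rik, shares 998 exonic bases with Fgfr3, and Gm16159 shares 164 with Fgfr1, likewise on the other strand. The same holds for Foxo1 (674 bases with Gm20402), Cd9 (218 with Gm26728) and Id4 (82 with A330033J07Rik and 171 with Gm49291).

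**Figure D2:**
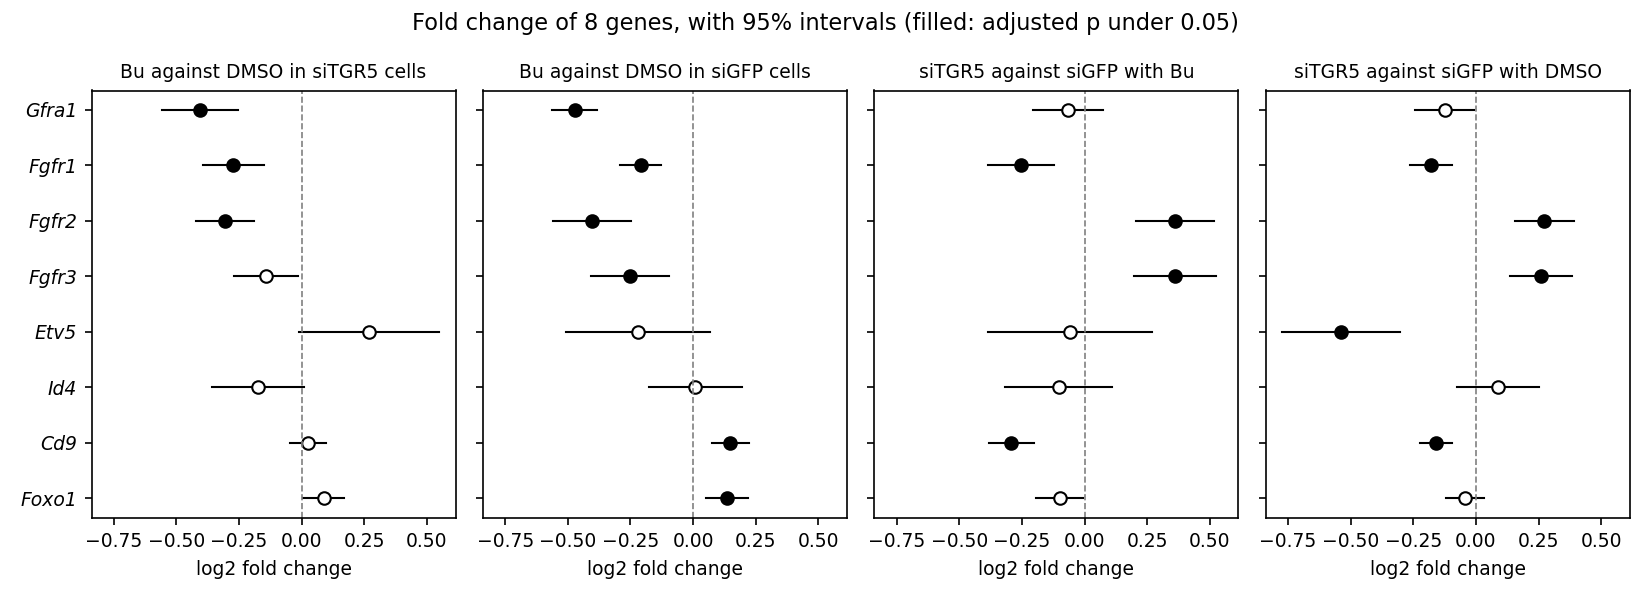
Log2 fold changes (x axis) of the 8 genes tested (y axis) in the 4 comparisons, with 95% intervals; filled points were called at an adjusted p under 0.05. Gfra1, Fgfr1 and Fgfr2 lay below 0 with Bu for both siRNAs, while Fgfr2 and Fgfr3 lay above 0 and Fgfr1 and Cd9 below 0 for siTGR5 against siGFP.

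Scaled by exon length, Fgfr1 made up most of the reads of these 3 receptors in every library. Its share was 82.4% ± 1.35 in siTGR5 Bu, 83.0% ± 0.685 in siTGR5 DMSO, 87.9% ± 0.856 in siGFP Bu and 86.9% ± 0.607 in siGFP DMSO cells (SD, n = 4, 5, 4 and 5). The libraries with siTGR5 ranged from 81.2% to 84.3% and those with siGFP from 86.0% to 88.6%, with no overlap, and the difference was -3.96 percentage points under DMSO and -5.45 under Bu. Between Bu and DMSO the shares overlapped, with differences of 0.942 points in siGFP and -0.548 points in siTGR5 cells. Fgfr2 made up 8.62% in siTGR5 Bu and 8.87% in siTGR5 DMSO cells, against 5.97% in siGFP Bu and 6.78% in siGFP DMSO cells. The shares are given without a test. They do not depend on the scaling of the libraries, and with the deposited transcript lengths the differences between siRNAs were -4.35 and -6.06 points.

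**Figure D3:**
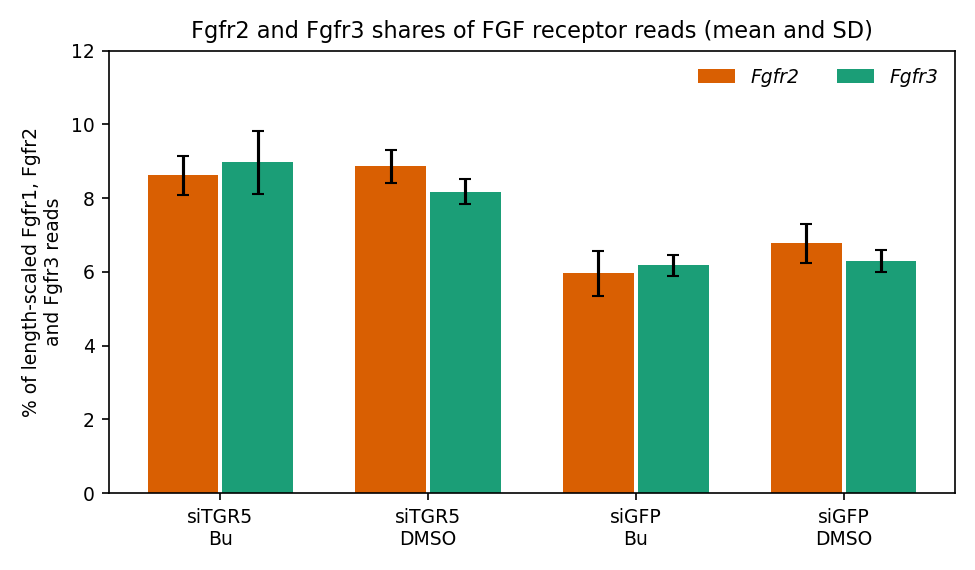
Share of Fgfr2 and of Fgfr3 (bars, mean; error bars, SD over 4 or 5 libraries) in the length-scaled reads of Fgfr1, Fgfr2 and Fgfr3 (y axis, percent, from 0) in siTGR5 Bu, siTGR5 DMSO, siGFP Bu and siGFP DMSO cells. Both genes took larger shares in the siTGR5 groups, with Fgfr2 at 8.62% and 8.87% against 5.97% and 6.78% in the siGFP groups.

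Among 9 FGF ligands tested with Bu in siGFP cells, 1 was higher and 4 were lower, and of 10 tested in siTGR5 cells none was higher and 2 were lower. Fgf2, the ligand added to cultures of spermatogonial stem cells, averaged 5.93 ± 0.186 CPM in siGFP Bu and 7.36 ± 0.375 CPM in siGFP DMSO cells (SD, n = 4 and 5; log2 fold change -0.31, adjusted p = 0.00511), and it was also lower with Bu in siTGR5 cells (-0.46, adjusted p = 0.003). Fgf1 fell by 1.40 and 0.95 on the log2 scale in siGFP and siTGR5 cells (adjusted p = 0.000314 and 0.0022), and averaged 0.405 CPM in siGFP Bu and 1.07 CPM in siGFP DMSO cells. Fgf18 had the smallest p of the ligands. It averaged 81.6 ± 4.82 CPM in siTGR5 Bu, 85.9 ± 4.33 in siTGR5 DMSO, 46.5 ± 1.73 in siGFP Bu and 61.1 ± 4.57 CPM in siGFP DMSO cells, and was higher with siTGR5 by 0.80 under Bu (adjusted p = 1.02e-07) and by 0.49 under DMSO (adjusted p = 1.6e-06) on the log2 scale. Fgf13, an intracellular relative of the FGF that does not signal through the receptors, was lower with siTGR5 (-0.66 under DMSO and -1.002 under Bu, adjusted p = 0.00242 and 0.000118). Between siRNAs 2 ligands were higher and 1 lower under DMSO, and 2 were higher and 2 lower under Bu.

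Of 10 tested partners of FGF receptors, 2 were higher and 3 lower with Bu in siGFP cells, and 2 were higher and 2 lower in siTGR5 cells. Flrt1 and Flrt3 encode membrane proteins that bind FGF receptors, and they moved apart. Flrt1 fell by 0.94 and 0.61 on the log2 scale with Bu in siGFP and siTGR5 cells (adjusted p = 4.68e-07 and 3.52e-08), while Flrt3 was higher by 0.32 and 0.48 (adjusted p = 0.000952 and 6.38e-06). Both were higher with siTGR5 under DMSO and under Bu, by 0.33 and 0.65 for Flrt1 and 0.46 and 0.61 for Flrt3. Between the siRNAs 2 partners were higher and 3 lower under DMSO, and 3 were higher and 1 lower under Bu. Fgfbp1, which releases FGF from the matrix, was higher with Bu (0.26 in siGFP and 0.57 in siTGR5 cells, adjusted p = 0.00713 and 0.000107), and Flrt2 fell by 0.24 and 0.18 (adjusted p = 0.0114 and 0.000298).

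Of the relay that carries the receptor signal, 27 genes were tested. With Bu 2 were lower and none higher in siGFP cells, and 3 were higher and 4 lower in siTGR5 cells. With siTGR5 7 were higher and 2 lower under DMSO, and 3 were higher and 3 lower under Bu. Of all genes tested, 28.1%, 30.7%, 28.3% and 30.3% were called in these 4 comparisons, in the same order. Pik3r1, a regulatory subunit of PI3 kinase, fell by 0.29 and 0.26 on the log2 scale with Bu in siGFP and siTGR5 cells (adjusted p = 0.00134 and 2.46e-05). Map2k1, the kinase that activates ERK, was lower with siTGR5 under DMSO (-0.28, adjusted p = 0.000154) and under Bu (-0.19, adjusted p = 0.00518).

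Etv5, a PEA3-type ETS factor that GDNF and FGF2 induce in spermatogonial stem cells, was called in 1 comparison. It had 2.04, 2.12, 1.78, 1.81 and 1.62 CPM in siTGR5 DMSO cells, against 2.80, 3.15, 2.44, 2.53 and 2.70 CPM in siGFP DMSO cells. All siTGR5 libraries lay below all siGFP libraries, at 68.9% of their level (log2 fold change -0.54, SE 0.11, adjusted p = 0.00176). Under Bu the groups overlapped, with 2.25, 2.02, 2.63 and 2.14 CPM in siTGR5 cells and 2.42, 1.73, 2.39 and 2.75 CPM in siGFP cells (-0.058, 95% interval -0.39 to 0.27, adjusted p = 0.806). The Bu effect was -0.22 in siGFP cells (adjusted p = 0.247) and 0.27 in siTGR5 cells (adjusted p = 0.137), neither of which was called. With 52 to 130 reads per library Etv5 had the fewest reads of the members tested and the widest intervals.

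Of the other genes that ERK signalling induces or that hold it back, 11 were tested. With Bu in siGFP cells 6 were lower and 1 higher, where 13.8% of all genes tested were lower and 14.3% higher. In siTGR5 cells 3 were lower and 1 higher, where the shares were 15.2% and 15.5%. Spred3, an inhibitor of the RAS-ERK relay, fell by 0.59 and 0.42 on the log2 scale, although it was not among the 4 genes of the list chosen by smallest p and is named after its values were seen (adjusted p = 4.04e-05 and 0.000317). Il17rd, an antagonist of FGF signalling, fell by 0.31 and 0.29 (adjusted p = 0.00118 and 1.56e-05), and Dusp4, a phosphatase of ERK, was higher by 0.42 and 0.37 (adjusted p = 2.09e-05 and 7.13e-05). With siTGR5 under DMSO 4 were lower and 1 higher, where 14.4% of all genes tested were lower and 13.8% higher. Under Bu 3 were lower and 3 higher, where the shares were 16.5% and 13.8%. Etv4, the PEA3 relative of Etv5, fell by 0.80 under DMSO and by 0.53 under Bu on the log2 scale with siTGR5 (adjusted p = 1.76e-05 and 0.00122). Dusp4 fell by 0.61 and 0.67 (adjusted p = 7.32e-07 and 1.93e-07) and Dusp6 by 0.38 and 0.29 (adjusted p = 5.58e-06 and 8.98e-05). Spry1, Spry2 and Dusp5, named after their values were seen, lay the other way under Bu. Spry1 averaged 3.45 ± 0.462 CPM in siTGR5 Bu and 2.35 ± 0.360 CPM in siGFP Bu cells (SD, n = 4 and 4). In the same order Spry2 averaged 13.9 ± 1.47 and 10.6 ± 0.461 CPM, and Dusp5 11.4 ± 0.351 and 8.76 ± 0.861 CPM. The list's median was -0.19 for Bu in siGFP cells and -0.048 for siTGR5 against siGFP under DMSO.

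**Figure D4:**
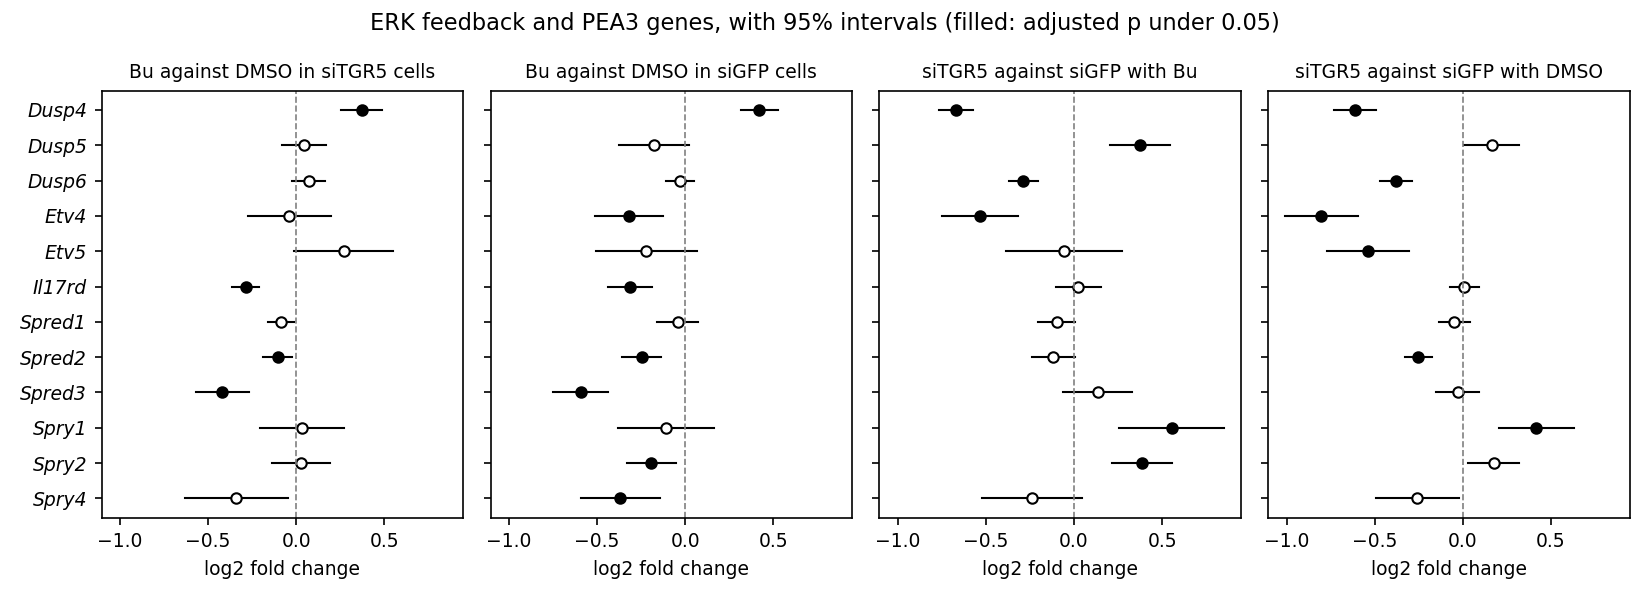
Log2 fold changes (x axis) with 95% intervals of Etv5 and the 11 other tested genes that ERK signalling induces or that restrain it (y axis), in the 4 comparisons; filled points were called. Etv4, Dusp4 and Dusp6 lay below 0 for siTGR5 against siGFP under both agents, and Dusp4 lay above 0 with Bu for both siRNAs. Of the 11 others, 4 were called lower and 1 higher for siTGR5 against siGFP under DMSO, and 3 lower and 3 higher under Bu.

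Genes known as induced by GDNF in cultured spermatogonial stem cells, 9 tested, gave 1 higher and 1 lower with Bu in siGFP cells and 1 higher and none lower in siTGR5 cells. Mycn fell by 0.51 on the log2 scale with Bu in siGFP cells (adjusted p = 0.000996), where Cxcr4 was higher by 0.39 (adjusted p = 0.00547). Ccnd2, a cyclin of the G1 phase, was higher with Bu in siTGR5 cells (0.25, adjusted p = 0.00103) and lay at -0.14 in siGFP cells (adjusted p = 0.0918). With siTGR5 3 were lower and none higher under DMSO, and 3 were lower and 1 higher under Bu.

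Id4 (chr13:48261228-48266026), the marker of the most stem-like spermatogonia, was not called in any comparison. It had 4.84, 5.09, 6.05 and 5.37 CPM in siGFP Bu cells, against 5.40, 4.66, 5.49, 5.48 and 5.40 CPM in siGFP DMSO cells, and the groups overlapped widely. The log2 fold change was 0.0096 with a 95% interval of -0.18 to 0.20 (adjusted p = 0.95), and differences inside that interval could not be detected. In siTGR5 cells it had 4.84, 5.59, 4.77 and 4.77 CPM with Bu, against 5.16, 5.86, 5.63, 6.21 and 5.36 CPM with DMSO (-0.17, 95% interval -0.36 to 0.0092, adjusted p = 0.143). Between siRNAs the values were 0.088 under DMSO (adjusted p = 0.422) and -0.10 under Bu (adjusted p = 0.468). Among the other ID and E proteins, all 6 tested, Id2 was higher with Bu by 0.24 in siGFP and 0.14 in siTGR5 cells (adjusted p = 0.00396 and 0.0296), and it was the only one higher in either. Tcf4, an E protein, was the only one lower, by 0.19 in siTGR5 cells (adjusted p = 0.00855). Id1 fell by 0.38 under DMSO and 0.49 under Bu with siTGR5 (adjusted p = 0.000235 and 0.00056), as the only one of the list under DMSO and 1 of 3 under Bu.

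Foxo1 (chr3:52268336-52353221) had 51.1, 51.1, 50.4 and 50.4 CPM in siGFP Bu cells, against 47.6, 47.7, 43.9, 46.4 and 46.3 CPM in siGFP DMSO cells. The groups did not overlap, and the difference was small (log2 fold change 0.13, SE 0.04, adjusted p = 0.0172). The log2 fold change was 0.13 without a filter on low counts (adjusted p = 0.0562) and 0.15 without the libraries that held rod transcripts (adjusted p = 0.0684), and the call was lost in both. It was also lost without library 3 or library 4 of siGFP DMSO, at 0.11 and 0.13 (adjusted p = 0.0546 and 0.0506). In siTGR5 cells Foxo1 had 48.5, 46.2, 50.1 and 46.2 CPM with Bu, against 44.6, 43.1, 47.0, 45.1 and 45.3 CPM with DMSO, which overlapped (0.087, adjusted p = 0.0985), and it was not called between siRNAs. Of 13 tested relatives and targets of FOXO factors, 3 were higher and 3 lower with Bu in siGFP cells, and 3 were higher and 5 lower in siTGR5 cells. Ccng2, a cyclin that FOXO factors induce, was higher by 0.31 and 0.32 (adjusted p = 6.5e-05 and 7.85e-07), and Fbxo32, a ubiquitin ligase subunit that they also induce, fell by 0.15 and 0.23 (adjusted p = 0.0287 and 0.00502). With siTGR5 2 were higher and 4 lower under DMSO, and 1 was higher and 4 lower under Bu, among them Insr, the insulin receptor, which fell by 0.42 and 0.44 (adjusted p = 7.21e-07 and 9.28e-05).

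Cd9 (chr6:125460266-125494791) had 201, 204, 199 and 188 CPM in siGFP Bu cells, against 178, 178, 177, 182 and 181 CPM in siGFP DMSO cells, a rise without overlap (log2 fold change 0.15, SE 0.04, adjusted p = 0.00559). When nuclear-retained transcripts (treated further on) entered the fit as a covariate, it was 0.055 and not called (adjusted p = 0.806). In siTGR5 cells it had 170, 159, 165 and 159 CPM with Bu, against 163, 161, 166, 162 and 151 CPM with DMSO. These groups overlapped (0.025, 95% interval -0.047 to 0.096, adjusted p = 0.624). Cd9 was lower with siTGR5 than with siGFP under DMSO (-0.16, SE 0.03, adjusted p = 0.000918) and under Bu (-0.29, SE 0.04, adjusted p = 0.000135), with no overlap in either. Of 9 partners of CD9, all tested, 2 were lower with Bu in siGFP cells and 4 in siTGR5 cells, and none was higher. Cd82, another tetraspanin, fell by 0.31 and 0.30 on the log2 scale (adjusted p = 0.000117 and 2.9e-05), and it was higher with siTGR5 by 0.21 under either agent (adjusted p = 0.00095 under DMSO and 0.00231 under Bu). Between siRNAs 3 partners were higher and 1 lower under DMSO, and 1 was higher and 1 lower under Bu.

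Further markers of undifferentiated spermatogonia were mostly below the filter on low counts. With Bu in siGFP cells 1 of 9 tested was higher and 1 lower, and in siTGR5 cells 2 of 8 were higher and 1 lower. Uchl1, a ubiquitin hydrolase, averaged 64.4 ± 2.35 CPM in siTGR5 Bu and 50.9 ± 3.70 CPM in siTGR5 DMSO cells (SD, n = 4 and 5; log2 fold change 0.34, adjusted p = 3.55e-05), and it lay at 0.14 with Bu in siGFP cells (adjusted p = 0.0902). Between siRNAs the markers went both ways. With siTGR5 2 of 8 tested were higher and 2 lower under DMSO, and 1 of 9 was higher and 1 lower under Bu. Bmi1, a Polycomb subunit, was lower with siTGR5 under DMSO (-0.32, adjusted p = 0.000684) and under Bu (-0.36, adjusted p = 0.00052). Of 6 markers of differentiating spermatogonia only Dnmt3b was tested, and it was higher with siTGR5 by 0.51 and 0.63 under DMSO and Bu (adjusted p = 0.00829 and 0.000475).

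Whether the Bu effect differed between siRNAs was tested over all 18 libraries, in which 1.37% of 14783 genes were called (0.724% higher and 0.649% lower in siTGR5 cells). None of the 8 members was called by edgeR or by DESeq2. At an unadjusted p under 0.05 there were 2. The Bu effect on Etv5 was higher by 0.49 on the log2 scale in siTGR5 than in siGFP cells (95% interval 0.11 to 0.87, adjusted p = 0.217), and that on Cd9 was lower by 0.12 (-0.22 to -0.026, adjusted p = 0.23). For Gfra1 the difference was 0.067 with an interval of -0.11 to 0.25 (adjusted p = 0.81), and for Fgfr2 it was 0.096 (-0.087 to 0.28, adjusted p = 0.699). Fgf18 and Fgf21, both ligands, and Ccnd2 were called, with differences of 0.32, 1.25 and 0.39 (adjusted p = 0.0269, 0.0416 and 0.0168). Fgf21, an endocrine FGF, is named after its values were seen and averaged 2.12 CPM in siTGR5 Bu, 1.63 in siTGR5 DMSO, 1.01 in siGFP Bu and 1.81 CPM in siGFP DMSO cells.

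A set of 17 transcripts retained in the nucleus, such as Malat1 and Neat1, moved with the groups. Their mean log2 CPM was 4.62 to 4.88 in siGFP Bu against 5.00 to 5.15 in siGFP DMSO libraries, and 4.87 to 5.06 in siTGR5 Bu against 5.11 to 5.43 in siTGR5 DMSO libraries. Of the 17, 10 were lower and 1 higher with Bu in siGFP cells, and 12 were higher and none lower with siTGR5 under Bu. With this score as a covariate, 1 of the 6 members stayed called for Bu in siGFP cells, which was Gfra1 (log2 fold change -0.48, adjusted p = 0.0407), and 277 of all 14304 genes. Of the 5 calls lost there, the log2 fold changes of Fgfr1 (-0.29), Fgfr3 (-0.32) and Foxo1 (0.10) stayed near their values without the covariate or exceeded them, while those of Fgfr2 (-0.26) and Cd9 (0.055) were smaller. None of the 4 stayed called between siRNAs under Bu, where 684 of 13971 genes were called, although the values of Fgfr1 (-0.27), Fgfr2 (0.30), Fgfr3 (0.44) and Cd9 (-0.24) kept their direction and most of their size. The same 3 members were called for Bu in siTGR5 cells and the same 5 for siTGR5 against siGFP under DMSO as without the covariate. Where the score does not overlap between groups, its part and that of the group cannot be told apart. Fibroblast markers moved with the siRNA as well. Under DMSO 8 of 9 tested were lower and none higher with siTGR5, and the summed CPM of the list was 6301 to 6799 in siTGR5 DMSO against 7618 to 8155 in siGFP DMSO libraries. Under Bu 5 of 9 were lower with siTGR5, with sums of 6218 to 6790 CPM in siTGR5 Bu against 6738 to 7482 CPM in siGFP Bu libraries. With Bu 2 were higher and 4 lower in siGFP cells, and 1 was higher and 3 lower in siTGR5 cells. The part of these markers in the members' differences was not tested. Of 6 Sertoli cell markers tested with Bu in siGFP cells 1 was lower, and neither of 2 Leydig cell markers was called in any of the 4 comparisons.

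**Figure D5:**
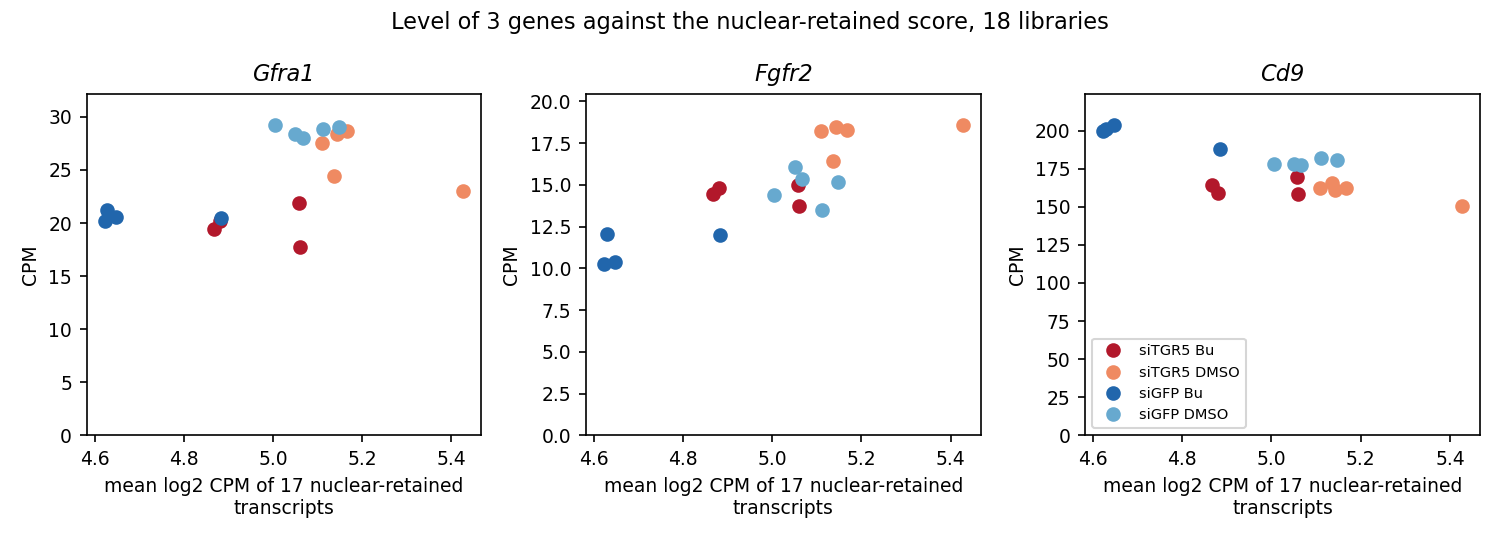
CPM of Gfra1, Fgfr2 and Cd9 (y axes, linear, from 0) against the mean log2 CPM of 17 nuclear-retained transcripts (x axes) in 18 libraries, coloured by group. The 4 siGFP Bu libraries have scores of 4.62 to 4.88, below all siGFP DMSO libraries (5.00 to 5.15).

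The genes whose levels followed the members most closely over the 18 libraries were found by Pearson's r of log2(CPM + 0.5) among 14783 genes. The libraries fall into 4 groups, so r mostly reflects differences between groups, and it is given as a description. Sorcs2 (r = 0.967), Ptgs1 (0.964), Ak5 (0.963), Arnt2 (0.959) and Csgalnact1 (0.957) were most like Gfra1. For Fgfr1 they were Tpcn1 (0.951), Pacs2 (0.951) and Clybl (0.950), for Fgfr2 D030028A08Rik (0.962), Rassf8 (0.958) and Cacna1g (0.956), and for Fgfr3 Fa2h (0.955), Tspan9 (0.942) and Il33 (0.941). Cd9 was followed by Gsto1 (0.963), Atxn10 (0.961) and Capg (0.959), Foxo1 by Blmh (0.915), Impdh2 (0.911) and Acsl5 (0.892), and Etv5 by Acly (0.892), Pank1 (0.880) and Bcat1 (0.834). For Id4, which was not called in any comparison, they were Gpr180 (0.786), Cox20 (0.758) and Fstl3 (0.746).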

How the data were processed

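Per the labels, poly(A) RNA went into a stranded mRNA kit. The study's methods give 50-base reads, HISAT2 and Bowtie2 alignment to mm10 with unique alignments kept, and counting per gene with HTSeq. Versions come from the submitters' processing notes (Bowtie2 2.1.0, DESeq2 1.0.19 and, for base calls, bcl2fastq 2.17.1.14). Whole-number read counts per gene, not normalized, were deposited by the authors and used here. Transcript length in the deposited table served only as an alternative. The authors' normalized columns and their own comparisons (fold changes and p-values) were not used. Genes passed edgeR's filterByExpr (minimum count 10, minimum total 15). Each comparison was fitted on its own groups with TMM factors and the quasi-likelihood F-test in edgeR 4.0.16 (R 4.3.3), with Benjamini-Hochberg adjustment over all genes tested; DESeq2 1.42.0 was an alternative. CPM are scaled by TMM over 18 libraries. The fit was tested on simulated data. The members and lists were chosen with earlier results of these data known. The text names all members, up to 4 called genes of each list by smallest p, and the genes most like each member. Alternatives were RLE factors, other filters, 1 fit of all 18 libraries, the replicate block, leaving out libraries and a covariate; those of the Fgfr1 share were chosen after seeing the data. Intervals cover the spread between libraries, and floors cover counting error only.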

Additional observations from a re-analysis of the deposited data

Results flagged for a closer look

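Of 32 checks of a single library against its group, 3 found a library set apart, where chance alone gives about 1 in 20. Fgfr2 in library 3 of siTGR5 DMSO had 16.4 CPM, below the 18.2 to 18.6 CPM of the other 4. Id4 in library 2 of siTGR5 Bu had 5.59 CPM, above the 4.77 to 4.84 CPM of the other 3, and Id4 in library 2 of siGFP DMSO had 4.66 CPM, below the 5.40 to 5.49 CPM of the other 4.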

How the results depend on the processing

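Of 744 values of single members under alternatives, 719 kept their direction and side of the threshold, 15 lost and 1 gained a call, and 9 changed sign, none of them called. With the nuclear-retained score as a covariate the members called were 1 in place of 6 for Bu in siGFP cells and 0 in place of 4 for siTGR5 against siGFP under Bu (the cause was not tested). In the first, the log2 fold changes of Fgfr1, Fgfr3 and Foxo1 (-0.29, -0.32 and 0.10) kept their direction and most of their size. Those of Fgfr2 (-0.26, from -0.40) and Cd9 (0.055, from 0.15) became smaller there. In the second, those of Fgfr1, Fgfr2, Fgfr3 and Cd9 (-0.27, 0.30, 0.44 and -0.24) kept their direction and most of their size. Over all genes the calls with the covariate were 277, 2360, 2495, 684 and 121 in the 5 comparisons (Bu in siGFP cells, Bu in siTGR5 cells, siRNAs under DMSO, siRNAs under Bu, difference of Bu effects), against 4023, 4409, 4039, 4231 and 203 without it. Without rod libraries, and so with fewer samples, they were 2961, 2660, 3146, 2566 and 47. For the difference, DESeq2 called 386 genes and edgeR without a filter 411, and leaving out 1 library gave 87 to 270. Leaving out 1 library gave 5 to 6, 3 to 3, 5 to 6, 4 to 4 and 0 to 0 members called in the 5 comparisons, and leaving out the rod libraries gave 5, 3, 5, 3 and 0. The changes of sign were Id4 with Bu in siGFP cells at a mean of at least 1 CPM (-0.0014) and without single libraries (-0.051 to 0.056), Etv5 there with the covariate (0.047), Cd9 with Bu in siTGR5 cells without rod libraries (-0.013), with the covariate (-0.028) and without single libraries (-0.0030 to 0.033), Etv5 between siRNAs under Bu without single libraries (-0.17 to 0.038), and Gfra1 in the difference of Bu effects without rod libraries (-0.0041).

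No pairing of libraries by replicate number was seen. The deviations of same-numbered libraries had correlations of -0.197 to 0.186, which in no comparison exceeded 0.1 in every pair. A weak or partial pairing would not show in this check. With the replicate block 6, 3, 5, 4 and 0 members were called, as without it. At this depth Gfra2 and Ret cannot be compared between groups.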
